A study of Homo sapiens with 8 samples.

Results

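HBEGF (heparin-binding EGF-like growth factor) was examined together with 3 further epidermal growth factor (EGF) family ligands, AREG, EREG and TGFA, 4 proteases of the ADAM family, ADAM8, ADAM9, ADAM10 and ADAM17, and the receptors ERBB2 and ERBB3. These 10 genes were selected by symbol among the 37526 gene names counted in all 8 libraries. HBEGF was picked because earlier results of these data showed its lower level in ATRA-treated knockdown cells and its smaller ATRA response, so its values are given as a description, without a test. The libraries came from NB4, an established human acute promyelocytic leukaemia line in which the PML gene is fused to that of retinoic acid receptor α. Cells were stably transduced by lentivirus with a control shRNA (shNC, called an empty vector in the sample labels and a scrambled shRNA in the study's methods) or with an shRNA against KDM3B, a histone H3 lysine 9 demethylase (shKDM3B). Each line was sequenced untreated, as undifferentiated cells, and after 1 µM all-trans retinoic acid (ATRA), as differentiated cells, with 2 libraries in each of the 4 groups. This dose is that of the sample labels, and the study's methods give its unit as mM. The ATRA time was given as 24 or 48 h without saying which applied, and which of the study's KDM3B target sequences the shKDM3B line carried was not stated.

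EGF-family ligands are made as membrane-anchored precursors, and ADAM proteases cut their ectodomains to release soluble growth factor. ADAM17 is the main sheddase of HBEGF, AREG, EREG and TGFA, while ADAM10 sheds EGF and betacellulin together with many leukocyte surface proteins. HBEGF, TGFA, AREG and EREG bind EGFR, HBEGF and EREG also bind ERBB4, ERBB2 binds no ligand and acts as a partner of the other receptors, and ERBB3 binds neuregulins. In myeloid cells HBEGF is known as a product of monocytes and macrophages and as the receptor of diphtheria toxin.

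The 250 bases upstream of the 4 ligand genes are shown because these genes were far apart in level in the same cells, as described below. Sequences are from RefSeq (GRCh38.p14), 5′ to 3′ on the strand of the gene, and capitals mark the motif matches. HBEGF lies at chr5:140332843-140346603 on the minus strand, 1895814 bases beyond the end of KDM3B on the same chromosome. The stretches shown are chr5:140346604-140346853 (minus) for HBEGF, chr2:70553827-70554076 (minus) for TGFA, chr4:74444886-74445135 (plus) for AREG and chr4:74364895-74365144 (plus) for EREG.
HBEGF: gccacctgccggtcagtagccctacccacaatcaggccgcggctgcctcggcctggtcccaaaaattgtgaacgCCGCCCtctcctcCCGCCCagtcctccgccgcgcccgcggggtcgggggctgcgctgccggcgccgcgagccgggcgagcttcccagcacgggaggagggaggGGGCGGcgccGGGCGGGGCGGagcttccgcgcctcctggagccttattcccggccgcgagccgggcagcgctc
TGFA: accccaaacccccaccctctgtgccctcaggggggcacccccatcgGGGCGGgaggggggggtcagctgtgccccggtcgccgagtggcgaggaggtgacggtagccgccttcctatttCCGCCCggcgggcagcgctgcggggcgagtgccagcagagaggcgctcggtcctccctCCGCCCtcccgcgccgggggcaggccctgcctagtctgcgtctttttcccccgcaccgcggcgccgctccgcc
AREG: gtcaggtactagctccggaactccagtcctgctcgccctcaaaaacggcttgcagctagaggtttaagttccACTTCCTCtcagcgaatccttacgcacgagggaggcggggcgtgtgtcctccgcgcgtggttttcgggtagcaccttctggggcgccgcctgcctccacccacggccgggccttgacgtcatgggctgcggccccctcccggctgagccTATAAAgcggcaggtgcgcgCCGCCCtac
EREG: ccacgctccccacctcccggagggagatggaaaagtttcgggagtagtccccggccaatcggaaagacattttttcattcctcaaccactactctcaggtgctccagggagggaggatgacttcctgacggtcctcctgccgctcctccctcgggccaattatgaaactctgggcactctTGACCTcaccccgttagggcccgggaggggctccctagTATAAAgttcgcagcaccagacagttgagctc
In TGFA the RefSeq start lies inside the gene span of GENCODE release 44, chr2:70447284-70554193. AREG, at chr4:74445136-74455005, and EREG, at chr4:74365145-74388749, are neighbours separated by 56386 bases.

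HBEGF and TGFA, the transcribed ligands, had the more GC-rich stretches, with 76.4% and 75.6% G or C, against 65.2% in AREG and 58.0% in EREG. The SP1 motif GGGCGG, read on either strand like all the motifs here, was found 5 times in HBEGF, where 1 pair of matches shares a base, and 3 times in TGFA. AREG held 1 match, 9 bases before its start, and EREG held none. It is a common motif, present in 42.3% of 27305 promoters of the same length. AREG and EREG each held a TATAAA box, 29 and 32 bases before the start, and HBEGF and TGFA held none (11.1% of all promoters). AGGTCA, the core of retinoic acid receptor sites, was found only in EREG among these 4, at 70 bases before the start (12.1% of all promoters). A direct repeat of AGGTCA with any 5 bases between the copies was found in none of them, and 0.00366% of all promoters hold it. The PU.1 core GAGGAAGT was found in AREG (2.13% of all promoters), and the AP-1 motif TGANTCA in none of these 4 (6.60%). These are matches of letters in short windows, and binding was not measured in these data.

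Libraries held from 9708739 to 33017787 read pairs assigned to genes, so that the limit set by a count of 0 (3 counts) lay between 0.0909 and 0.309 CPM (counts per 1000000 read pairs on genes). Levels below are CPM scaled between libraries by the TMM method. KDM3B itself was at 187 and 188 CPM in shNC, 76.4 and 86.2 in shKDM3B, 196 and 121 in ATRA-treated shNC, and 52.5 and 57.4 in ATRA-treated shKDM3B. Read pairs that fell outside genes made up 8.49% to 9.62% of the total in the 4 untreated libraries and in replicate 1 of ATRA-treated shNC, but 50.02% to 51.4% in replicate 2 of ATRA-treated shNC and in both ATRA-treated shKDM3B libraries. In shKDM3B both treated libraries thus had the high share and both untreated ones the low share. No ATRA change in shKDM3B can be told apart from that share. Of 8722 genes with a mean of at least 10 CPM, 5.90% differed over 2-fold between the ATRA-treated shNC replicates, against 0.814% between the shNC replicates. Of the promyelocyte markers, MPO, CTSG, CD33 and CEBPE were present while ELANE, AZU1 and PRTN3 stayed at or below 1.47 CPM in every library. Of the epithelial list CDH1, KRT5 and KRT19 had no count, while EPCAM was at 13.1 to 18.9 CPM in every library and KRT8 was called higher with ATRA in both lines. Of the erythroid and megakaryocytic list HBB, HBA1 and PF4 had no count, while ITGA2B was at 7.78 and 7.59 CPM in shNC and was called lower in untreated shKDM3B. The 5 lymphoid markers summed to 4.21 to 6.34 CPM untreated and 13.7 to 25.6 CPM treated, and CD79A was called higher with ATRA in both lines. Like HBEGF and TGFA, CD79A was lower in shKDM3B under ATRA, at 16.4 and 16.1 CPM in ATRA-treated shNC and 6.95 and 8.24 in ATRA-treated shKDM3B, and was called lower (log2 fold change -1.09, SE 0.24, edgeR adjusted p = 0.502), in 2 of 4 fits that left out a library. The 5 fibroblast markers summed to at most 0.919 CPM. The part of these markers in the results was not tested. Nothing in the labels says that the replicates were separate cultures, so p-values may measure technical spread alone. With 2 libraries a group, a permutation of labels cannot give a two-sided p below 0.333, and p-values here come from edgeR's quasi-likelihood fits across all genes.

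HBEGF was far higher with ATRA in both lines, and with KDM3B knocked down it started higher and ended lower. It stood at 7.03 and 5.79 CPM in shNC and at 9.97 and 13.7 CPM in shKDM3B. With ATRA it reached 100.3 and 112 CPM in shNC and 54.6 and 59.3 CPM in shKDM3B. The 4 groups did not overlap, but HBEGF was picked on these values, so this is description only. The ATRA-treated shNC replicates lay close together although their shares of read pairs outside genes were 9.36% and 50.02%.

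In shNC the HBEGF level was 16.9-fold higher with ATRA (log2 fold change 4.08, SE 0.25), and in shKDM3B it was 4.95-fold higher (2.31, SE 0.19). The response was thus smaller by 1.79 on the log2 scale in shKDM3B (-1.79, SE 0.28). The difference had a part on each side of the treatment. Without ATRA, HBEGF was 1.85-fold higher in shKDM3B (0.89, SE 0.26). With ATRA it was 1.85-fold lower in shKDM3B (-0.89, SE 0.13), with -0.96 among the libraries with about 50% of read pairs outside genes, and the ATRA response in shNC was 3.98 among the libraries with under 10%. In shKDM3B treatment and that share cannot be told apart.

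**Figure D1:**
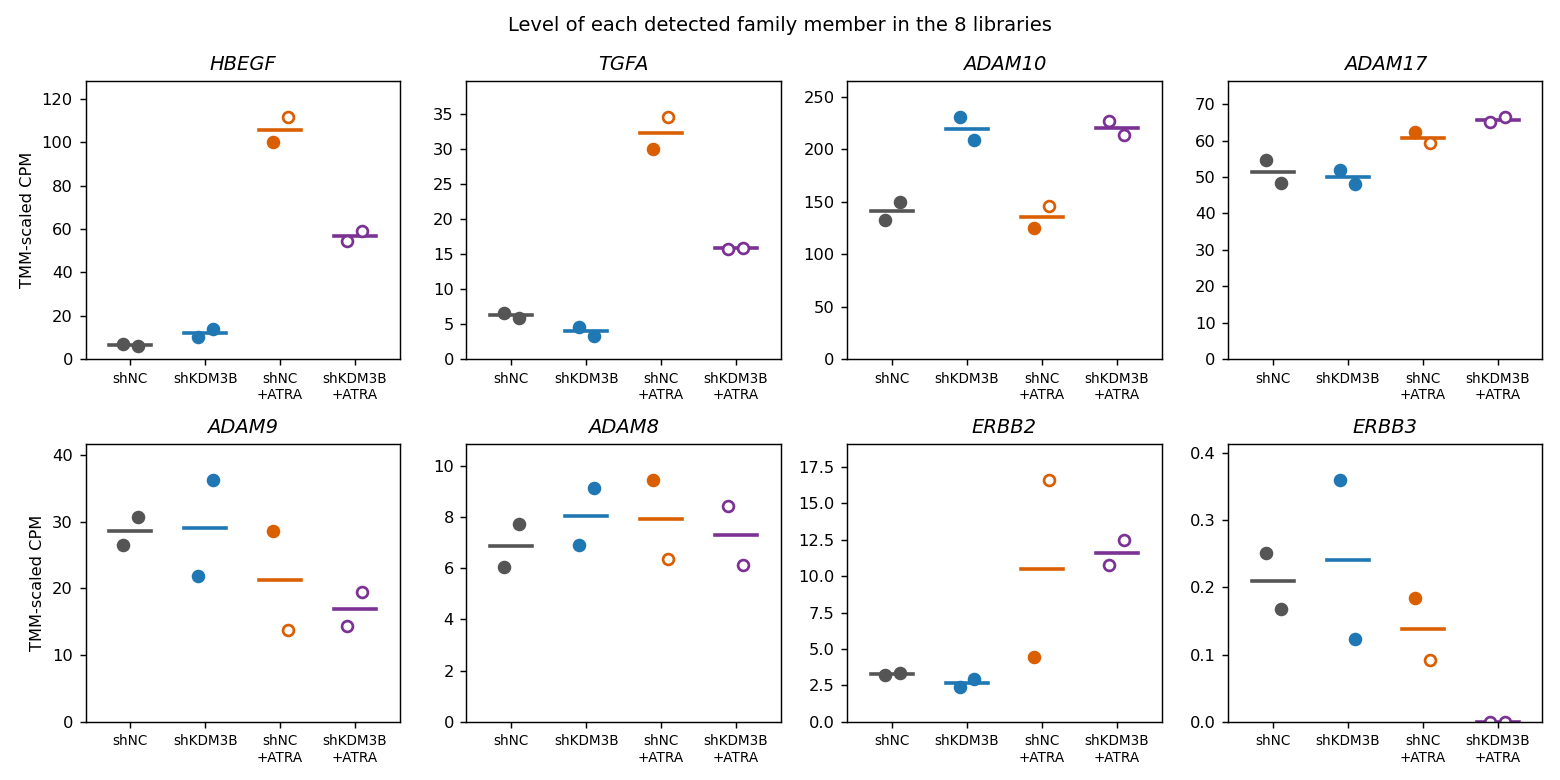
Level of 8 members in TMM-scaled CPM (vertical axis, from 0, a separate scale in each panel) in the 4 groups (horizontal axis); points are libraries, lines are group means, and open points are the 3 libraries with about 50% of read pairs outside genes. HBEGF and TGFA are high with ATRA, ADAM10 is high with the KDM3B shRNA, and ERBB2 follows the open points; AREG and EREG, at 0 in all 8 libraries, are not drawn.

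The granulocytic markers shared the rise of HBEGF with ATRA in shNC and its lower level in shKDM3B under ATRA. The summed level of 7 granulocytic differentiation markers was 429 to 448 CPM in shNC, 252 to 265 in shKDM3B, 8403 to 9371 in ATRA-treated shNC and 3761 to 4364 in ATRA-treated shKDM3B. Single genes carried this sum, and not the same one in each setting. Without ATRA it was mostly CYBB, at 315 to 338 CPM in shNC and 172 to 192 in shKDM3B. With ATRA it was mostly TGM2, at 5142 to 5836 CPM in shNC and 2268 to 2542 in shKDM3B. All 7 were called higher with ATRA in shNC, where 15% of all genes were, and 6 of 7 were called lower in shKDM3B than in shNC under ATRA, where 4.37% of all genes were. Without ATRA 3 of the 5 tested (CYBB, ITGAM and NCF1) were already called lower in shKDM3B, where 3.53% of all genes were. For a difference between the lines in the ATRA response 0 of 7 were called, where 1.27% of all genes were called higher and 2.72% lower. The median of that difference was -0.19 for the markers, while HBEGF was at -1.79. The promyelocyte list did not move as a whole. The sum of its 7 genes was 4503 to 5608 CPM in shNC, 8616 to 9789 in shKDM3B, and 1042 to 1271 and 2608 to 3482 with ATRA, and it followed MPO, the myeloperoxidase gene, at 4284 to 5343, 8339 to 9518, 616 to 730 and 2220 to 3128 CPM. MPO was the 1 gene of the list called between the lines, higher in shKDM3B without ATRA (0.89, SE 0.15, edgeR adjusted p = 0.105) and with ATRA (1.99, SE 0.24, adjusted p = 0.502). Under ATRA the differences of the other genes tested were -0.79 for CTSG, -0.48 for CEBPE and -0.05 for CD33, and the list's median was -0.27. With ATRA, MPO and the protease gene CTSG were called lower in both lines, while CEBPE, a myeloid transcription factor gene, was called higher in shNC (2.64, SE 0.27, edgeR adjusted p = 0.00135) and in shKDM3B (2.13, SE 0.13, adjusted p = 1.4e-06). CD33 had changes of 0.56 and 0.48, below the 1.5-fold limit. Without ATRA the granulocytic sum was lower in shKDM3B while HBEGF was higher. The part of these markers in the HBEGF levels was not tested, and in bulk RNA fewer cells with a transcript and less of it per cell cannot be told apart.

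TGFA, which codes for transforming growth factor alpha, another EGFR ligand, rose with ATRA in both lines and was lower in shKDM3B both with and without ATRA. It was at 6.63 and 5.92 CPM in shNC, 4.52 and 3.34 in shKDM3B, 30.03 and 34.5 in ATRA-treated shNC, and 15.7 and 15.9 in ATRA-treated shKDM3B. The groups did not overlap. ATRA raised it 5.27-fold in shNC (log2 fold change 2.40, SE 0.26, edgeR quasi-likelihood test with Benjamini-Hochberg adjustment, adjusted p = 0.00173) and 4.19-fold in shKDM3B (2.07, SE 0.25, adjusted p = 1.2e-04 by the same test). Unlike HBEGF, TGFA was lower, not higher, in untreated shKDM3B. The 2 responses differed by -0.35 (95% interval -1.10 to 0.40, edgeR adjusted p = 1.00), so a difference was not shown.

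Genes were called at an unadjusted p under 0.05 and a change of at least 1.5-fold, and the adjusted p-values printed beside the calls are over all genes of the fit. On that rule TGFA was lower in shKDM3B without ATRA (-0.68, SE 0.29, edgeR adjusted p = 0.470) and with ATRA (-1.03, SE 0.19, edgeR adjusted p = 0.502). Neither passed adjustment in edgeR, while DESeq2 gave TGFA an adjusted p = 0.00639 with ATRA. Over the alternative fits of all the libraries compared, the adjusted p of TGFA ran from 0.0992 to 0.622 without ATRA and from 0.00639 to 0.781 with ATRA (edgeR and DESeq2). The untreated call was lost without shNC replicate 1 (-0.60) or shKDM3B replicate 2 (-0.48) and under DESeq2. The call under ATRA was lost without replicate 1 (-1.01) or replicate 2 (-1.03) of ATRA-treated shKDM3B, with nearly the same size.

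AREG and EREG, the genes of amphiregulin and epiregulin, had 0 counts in all 8 libraries. This allows up to 0.0909 to 0.309 CPM before TMM scaling, depending on the library. EGF and EPGN (epigen) had at most 3 counts in any library, and BTC (betacellulin) had none. The neuregulins NRG1, NRG2 and NRG3 were likewise at or below 1 count.

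NRG4, a ligand of ERBB4, was the other ligand gene with more than 3 counts in a library. It was at 2.21 and 1.05 CPM in shNC, 0.565 and 0.859 in shKDM3B, 3.74 and 10.3 in ATRA-treated shNC, and 11.1 and 8.94 in ATRA-treated shKDM3B. The 3 highest libraries were those with about 50% of read pairs outside genes. It was called higher with ATRA in shNC (2.14, SE 0.62, edgeR adjusted p = 0.0690), with 1.21 when replicate 2 of ATRA-treated shNC was left out. In shKDM3B the change was 3.81 (SE 0.34, edgeR adjusted p = 1.9e-05). Exons of FBXO22 on the opposite strand cover 38.2% of the exonic bases of NRG4, and the strand setting of the counting is not given in the sources used here, so reads of the 2 genes may be mixed.

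ADAM10, the protease that sheds EGF, betacellulin and many leukocyte proteins, was higher in shKDM3B whether or not ATRA was added. It was at 133 and 150 CPM in shNC against 230 and 209 in shKDM3B. With ATRA it was at 124 and 146 CPM in shNC against 227 and 213 in shKDM3B. All 4 knockdown libraries lay above all 4 control libraries. The difference was 1.55-fold without ATRA (log2 fold change 0.64, SE 0.15, edgeR adjusted p = 0.172) and 1.63-fold with ATRA (0.71, SE 0.14, edgeR adjusted p = 0.502), so it was called in both settings. It passed adjustment in neither main edgeR fit, while DESeq2 gave ADAM10 an adjusted p = 0.0307 without ATRA and 6.3e-04 with ATRA. Over the alternative fits of all the libraries compared, the adjusted p of ADAM10 ran from 5.5e-04 to 0.341 without ATRA and from 6.3e-04 to 0.781 with ATRA (edgeR and DESeq2). The low end without ATRA came from edgeR with a replicate block. ADAM10 did not move detectably with ATRA, with -0.03 (95% interval -0.52 to 0.46) in shNC and 0.06 (-0.22 to 0.33) in shKDM3B.

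The size of the ADAM10 difference lies close to the 1.5-fold limit. Without shNC replicate 1 it was 0.55 and without shKDM3B replicate 1 it was 0.56 in untreated cells, both below the limit. Under ATRA the call was lost without replicate 1 (0.67) or replicate 2 (0.76) of ATRA-treated shKDM3B. Among the libraries with about 50% of read pairs outside genes it was 0.60, still called.

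ADAM17, the main sheddase of the ligands above, hardly differed with the knockdown. It was at 54.7 and 48.3 CPM in shNC, 51.9 and 48.1 in shKDM3B, 62.3 and 59.3 in ATRA-treated shNC, and 65.2 and 66.4 in ATRA-treated shKDM3B. The treated libraries were the higher ones in both lines. The change was 0.45 in shKDM3B (SE 0.13, edgeR adjusted p = 0.0198), which is below the 1.5-fold limit and was not called, and 0.27 in shNC (SE 0.21, adjusted p = 0.454). Between shKDM3B and shNC the intervals were -0.41 to 0.33 without ATRA and -0.21 to 0.44 with ATRA. Genes on the opposite strand cover 11.7% of the exonic bases of ADAM17.

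ADAM9, a protease able to cut HBEGF, varied widely within groups. It was at 26.5 and 30.7 CPM in shNC, 21.9 and 36.3 in shKDM3B, 28.6 and 13.8 in ATRA-treated shNC, and 14.4 and 19.4 in ATRA-treated shKDM3B. The 3 lowest libraries were again those with about 50% of read pairs outside genes. It was called lower with ATRA in shKDM3B (-0.73, SE 0.26, edgeR adjusted p = 0.0385), but the change was -0.32 without shKDM3B replicate 2 and it was not called in a fit of all 8 libraries (-0.78). The treatment and that share cannot be told apart there. In shNC the change was -0.40 (95% interval -1.21 to 0.42), and 0.01 among the libraries with under 10% outside genes.

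ADAM8, a protease of neutrophils and monocytes, stayed between 6.02 and 9.44 CPM in the 8 libraries. Its groups overlapped in every comparison, and the fitted log2 fold changes of the 4 pairwise comparisons ran from -0.12 to 0.24. The 95% intervals of the 2 ATRA changes were -0.61 to 1.08 in shNC and -0.71 to 0.52 in shKDM3B.

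ERBB2, the receptor without a ligand of its own, was low in 5 libraries and higher in 3. It was at 3.21 and 3.31 CPM in shNC, 2.41 and 2.95 in shKDM3B, 4.41 and 16.6 in ATRA-treated shNC, and 10.7 and 12.5 in ATRA-treated shKDM3B. The replicates of ATRA-treated shNC thus differed 3.76-fold, and the 3 high libraries were those with about 50% of read pairs outside genes. ERBB2 was called higher with ATRA in shNC (1.72, SE 0.61, edgeR adjusted p = 0.120) and in shKDM3B (2.15, SE 0.27, edgeR adjusted p = 1.5e-04). Within shNC, the libraries with under 10% outside genes gave 0.44, which was not called, and leaving out either shNC library also ended the call (1.66 and 1.73). In shKDM3B treatment and share cannot be told apart. Exons of MIEN1 and PGAP3 on the opposite strand cover 6.93% of the exonic bases of ERBB2, and the part of such reads was not tested.

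ERBB3, the neuregulin receptor, had 5 and 4 counts in shNC, 7 and 4 in shKDM3B, 3 and 1 in ATRA-treated shNC, and 0 in both ATRA-treated shKDM3B libraries. It was too low for a comparison. EGFR, the receptor of HBEGF and TGFA, had 1 count in shNC replicate 1 and none in the other 7 libraries, and ERBB4 had at most 2. ERBB2 was therefore the 1 receptor of the family with more than 7 counts in a library.

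**Figure D2:**
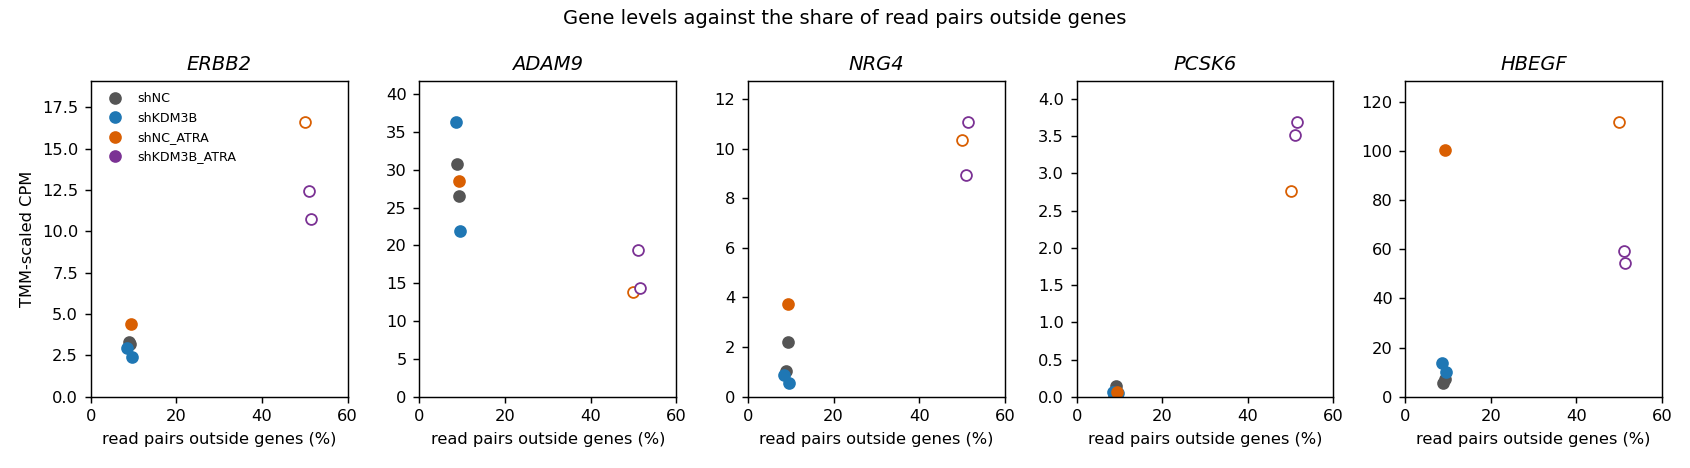
Level of 5 genes in TMM-scaled CPM (vertical axis, from 0) against the percentage of read pairs outside genes (horizontal axis); each point is a library, coloured by group, and open points are the 3 libraries at about 50%. ERBB2, NRG4 and PCSK6 are high and ADAM9 is low in those 3 libraries, including replicate 2 of ATRA-treated shNC but not its replicate 1, while HBEGF is high in both.

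Counted over the 9 members other than HBEGF, 6 passed the low-count filter in every comparison and AREG, EREG and ERBB3 did not. Without ATRA 1 of the 6 was called higher in shKDM3B (ADAM10) and 1 lower (TGFA), where 3.48% of all 13855 genes were called higher and 3.53% lower. With ATRA ADAM10 was again called higher and TGFA lower, where 2.42% of 14281 genes were called higher and 4.37% lower. Both comparisons have their own libraries but the same shNC and shKDM3B lines, so they are not independent of each other. With 6 genes tested these counts say little beyond the genes themselves.

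Between treated and untreated cells, 2 of 6 members were called higher in shNC (ERBB2 and TGFA) where 15% of all 12429 genes were called higher and 10.8% lower, and 2 higher and 1 lower (ADAM9) in shKDM3B where 24% of 12756 genes were called higher and 18.3% lower. With 6 genes tested, these counts were not set apart from the background by a test. None of the 6 was called for a difference between the lines in the ATRA response, where 1.27% of 13528 genes were called higher and 2.72% lower. That split, 172 against 368 genes, was 234 against 279 when libraries were scaled by library size alone. No gene passed adjustment in that comparison in edgeR (607 genes at an unadjusted p under 0.05), while in DESeq2 25 genes had an adjusted p under 0.05 and a difference of at least 1.5-fold. The median log2 change of the 6 members was 0.26 against 0.02 for all genes with ATRA in shNC, 0.25 against 0.04 in shKDM3B, and -0.0065 and 8.0e-04 in the knockdown comparisons without and with ATRA.

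**Figure D3:**
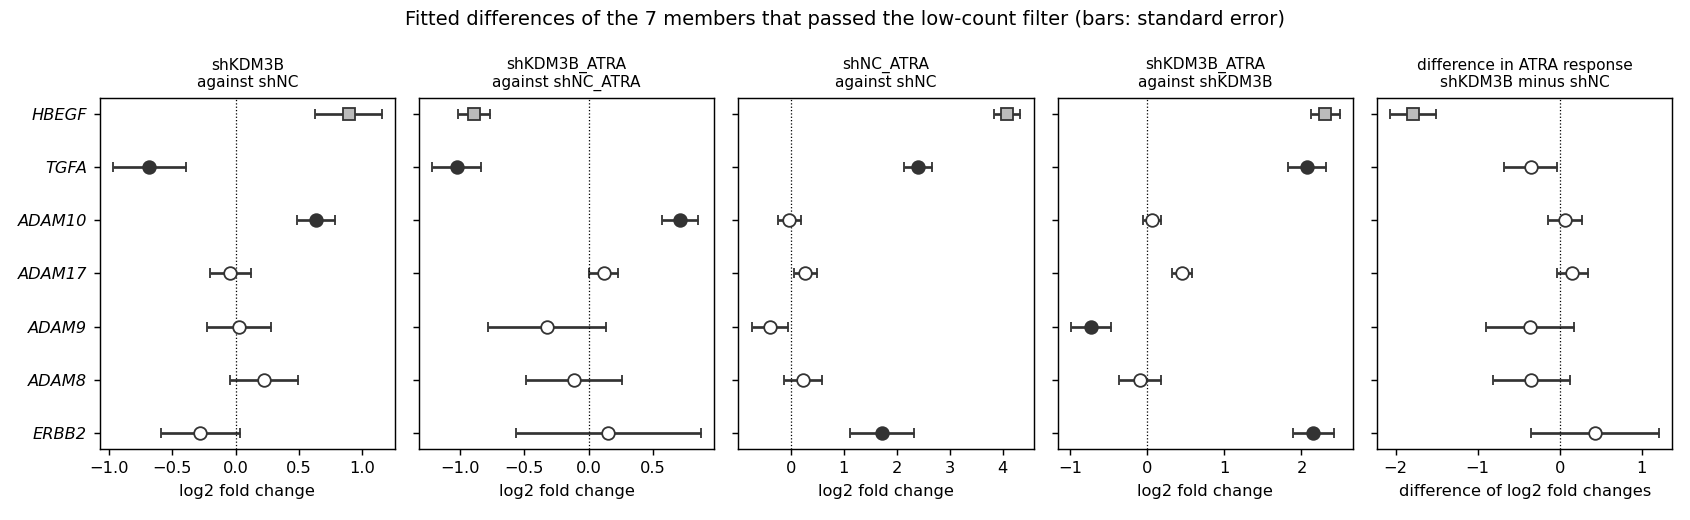
Fitted log2 fold changes (horizontal axes, different ranges) of the 7 members that passed the low-count filter, in 4 comparisons, and in the right panel the difference between the 2 ATRA responses; bars are standard errors. Filled circles passed an unadjusted p under 0.05 and 1.5-fold, open circles did not, and HBEGF (grey squares) was not tested; TGFA lies left of 0 and ADAM10 right of 0 in both knockdown comparisons.

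Per kilobase of exon, ADAM10 was the most abundant member without ATRA, with 8.83 ± 0.76 CPM per kb in shNC and 13.7 ± 0.96 in shKDM3B (SD, n = 2). ATRA changed the order. In ATRA-treated shNC, HBEGF came first with 35.4 ± 2.7 CPM per kb, followed by ADAM10 with 8.45 ± 0.95, TGFA with 6.56 ± 0.64 and ADAM17 with 3.81 ± 0.13. In ATRA-treated shKDM3B, HBEGF was at 19.0 ± 1.1, ADAM10 at 13.8 ± 0.62, ADAM17 at 4.12 ± 0.054 and TGFA at 3.21 ± 0.026, so that TGFA and ADAM17 stood in the opposite order. In shNC, HBEGF at 2.14 ± 0.29 followed ADAM17 at 3.22 ± 0.28, and in shKDM3B it lay above it, at 3.96 ± 0.89 against 3.13 ± 0.17, which is within its spread. The lower places (ADAM9, ADAM8 and TGFA without ATRA, and ADAM8, ADAM9 and ERBB2 with ATRA) lay close together and in part within their spread, except TGFA in shKDM3B, at 0.800 ± 0.17 below ADAM8 and ADAM9.

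**Figure D4:**
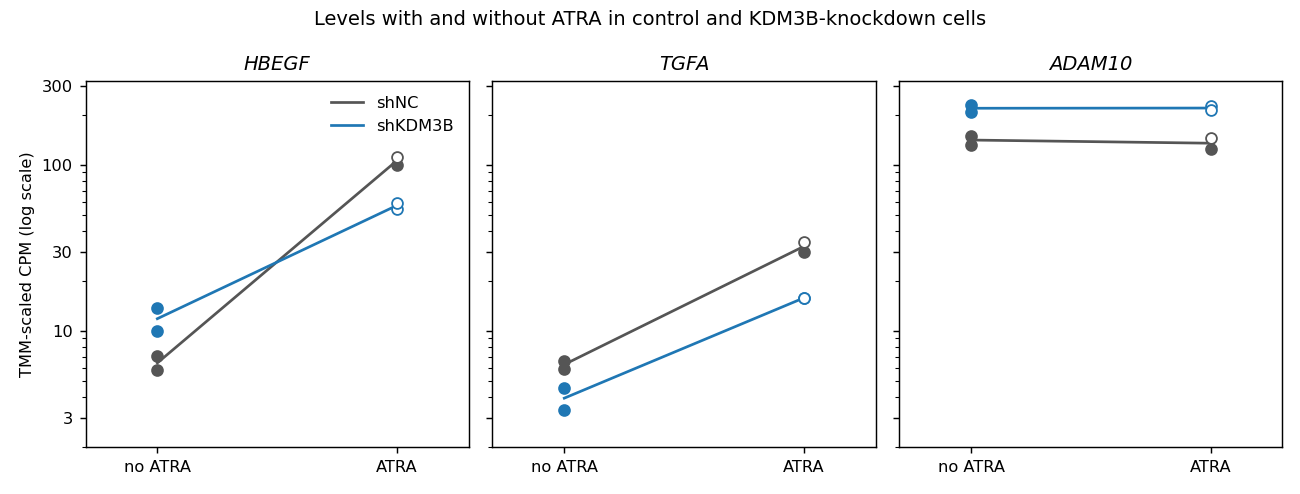
Level of HBEGF, TGFA and ADAM10 in TMM-scaled CPM (vertical axis, log scale, shared) without and with ATRA in shNC (grey) and shKDM3B (blue); points are libraries, lines join group means, and open points are the libraries with about 50% of read pairs outside genes. The lines cross for HBEGF, stay apart in the same order for TGFA and are flat for ADAM10, with shKDM3B above.

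The genes whose level followed HBEGF most closely over the 8 libraries were PLIN3 (Pearson r = 0.990), DHRS3 (0.989), LYN (0.988), PRICKLE3 (0.988) and RAB20 (0.986), on log2(CPM + 1) among 8721 genes. All points share the ATRA contrast, so r describes the likeness only. DHRS3, a retinaldehyde reductase that responds to retinoic acid in many cells, was at 2.41 and 2.14 CPM in shNC, 3.596 and 4.17 in shKDM3B, 144 and 164 in ATRA-treated shNC, and 78.6 and 108 in ATRA-treated shKDM3B. RAB20, a small GTPase of endosomes, was at 15.97 and 16.3, 21.4 and 23.0, 55.0 and 57.4, and 35.6 and 36.3 CPM in the same order of groups. PRICKLE3 was at 15.5 and 15.6, 19.4 and 19.2, 36.5 and 35.8, and 33.6 and 32.1 CPM. DHRS3, RAB20 and PRICKLE3 were higher in shKDM3B without ATRA and lower in it with ATRA, with no overlap of groups, which is the order of HBEGF, the gene they were chosen to resemble. LYN, a SRC-family kinase, was at 72.8 and 64.6 CPM in shNC, 72.6 and 75.4 in shKDM3B, 172 and 188 in ATRA-treated shNC, and 129 and 152 in ATRA-treated shKDM3B. PLIN3, a lipid droplet protein, was at 57.4 and 56.3, 56.7 and 62.7, 93.2 and 90.7, and 78.9 and 85.1 CPM. The means of LYN and PLIN3 followed the same order, with untreated groups that overlapped.

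The wider pathway was followed in 67 genes of 7 lists. With ATRA, 13 of 39 tested were called higher and 5 lower in shNC, and 14 higher and 5 lower in shKDM3B. Between the lines, 2 of 37 were called higher and 3 lower in shKDM3B without ATRA, and 0 higher and 4 lower of 39 with ATRA. For a difference in the ATRA response 2 of 42 were higher and 1 lower. The background shares are those given for the members.

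Genes of sheddase escorts and of metalloprotease inhibitors were among those that rose with ATRA. Of 18 genes of escorts, activators and inhibitors, 10 were tested for each ATRA change, and 5 were called higher and none lower in shNC (median 0.44 on the log2 scale), where 15% of all genes were called higher and 10.8% lower. In shKDM3B 6 were called higher and 1 lower (median 0.66), where 24% of all genes were called higher and 18.3% lower. RHBDF2, which codes for iRhom2, the carrier of ADAM17 to the cell surface, went from 3.77 and 6.21 CPM in shNC to 32.5 and 25.4 with ATRA, and from 4.93 and 7.85 in shKDM3B to 16.6 and 20.3. These are increases of 2.57 (SE 0.34, edgeR adjusted p = 0.00364) and 1.57 (SE 0.26, adjusted p = 9.6e-04), and the difference between them was -1.01 (SE 0.47, edgeR adjusted p = 1.00). FRMD8, a stabiliser of the iRhom complex, was called higher in both lines (0.65 and 0.64), but in 1 of 4 fits that left out a library in shNC and in 2 of 4 in shKDM3B.

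TSPAN14, a tetraspanin that escorts ADAM10, went from 73.4 and 103 CPM in shNC to 268 and 297 with ATRA, and from 90.1 and 102 in shKDM3B to 223 and 249. The increases were 1.71 (SE 0.24, edgeR adjusted p = 0.00483) and 1.35 (SE 0.13, adjusted p = 3.1e-05). ADAM10 itself did not change detectably with ATRA, as given above. The proprotein convertase gene FURIN was called lower in shKDM3B with ATRA (-0.63, SE 0.15, edgeR adjusted p = 0.00594), and its change in shNC was -0.40 (SE 0.21). In shKDM3B the treatment and the share of read pairs outside genes cannot be told apart for RHBDF2, TSPAN14 or FURIN.

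The metalloprotease inhibitors TIMP1 and TIMP2 were also called higher with ATRA, while TIMP3 and TIMP4 had no count in any library. TIMP2 rose by 0.95 in shNC (SE 0.27, edgeR adjusted p = 0.0670) and by 1.04 in shKDM3B (SE 0.15, adjusted p = 4.0e-04). With ATRA TIMP2 was at 52.0 and 79.8 CPM in shNC and 94.1 and 79.5 in shKDM3B. Its 3 highest libraries were those with about 50% of read pairs outside genes. TIMP1 was at 63.6 and 61.1 CPM in shNC, 35.2 and 45.8 in shKDM3B, 76.5 and 126 in ATRA-treated shNC, and 57.8 and 67.8 in ATRA-treated shKDM3B. It was called lower in untreated shKDM3B (-0.62, SE 0.18, edgeR adjusted p = 0.260). Among the libraries with under 10% of read pairs outside genes, the ATRA changes in shNC were 0.58 for TIMP2 and 0.30 for TIMP1, and these calls in shNC held in 1 of 4 fits that left out a library. PCSK6, another proprotein convertase, had at most 3 counts in the 5 libraries with under 10% outside genes and 30 to 35 counts in the other 3.

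Of 9 further catalytic ADAM genes, 5 had at most 3 counts in each library. ADAM15, the most abundant, was at 126 to 222 CPM and was not called in any comparison. ADAM19 had 0 and 1 counts in shNC, 0 and 1 in shKDM3B, 26 and 20 in ATRA-treated shNC (1.59 and 1.84 CPM), and 4 and 5 in ATRA-treated shKDM3B (0.421 and 0.502 CPM). It was called higher with ATRA in shNC (edgeR adjusted p = 0.00620). It was called lower in shKDM3B than in shNC under ATRA (-1.86, SE 0.51, edgeR adjusted p = 0.502), a call kept in 2 of 4 fits that left out a library. ADAM28 was called higher with ATRA in shKDM3B (1.05, SE 0.37, edgeR adjusted p = 0.0405), from 1.44 and 1.20 to 2.11 and 3.11 CPM. There the treatment and the share of read pairs outside genes cannot be told apart.

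Among 6 partners of the HBEGF precursor, 3 were called lower with ATRA in shNC and none higher, where 10.8% of all genes were called lower and 15% higher. In shKDM3B 2 were called lower and none higher, where 18.3% of all genes were called lower and 24% higher. CD9, the tetraspanin that binds the HBEGF precursor on the membrane, went from 13.9 and 9.61 CPM in shNC to 2.33 and 3.78 with ATRA (-1.91, SE 0.41, edgeR adjusted p = 0.0240), and from 8.01 and 8.77 in shKDM3B to 1.69 and 1.21 (-2.48, SE 0.32, adjusted p = 1.8e-04). CD44, whose heparan sulphate form can hold HBEGF, was at 13.8 and 28.7 CPM in shNC, 4.11 and 10.2 in shKDM3B, 2.21 and 4.33 in ATRA-treated shNC, and 5.48 and 5.93 in ATRA-treated shKDM3B. It was called lower in untreated shKDM3B (-1.55, SE 0.46, edgeR adjusted p = 0.265) and lower with ATRA in shNC (-2.68, SE 0.50, adjusted p = 0.0141). ZBTB16 (PLZF), a transcriptional repressor that binds the cytoplasmic part of the HBEGF precursor, was at 6.07 and 10.5 CPM in shNC and 18.1 and 19.0 in shKDM3B, and was called higher in the latter. With ATRA it had no count in either shNC library, at least 36.0-fold lower against a floor of 3 counts per library, and 1 and 3 counts in shKDM3B. NRDC (nardilysin), which binds the precursor and aids its shedding, was the most abundant at 189 to 269 CPM and was called in no comparison.

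Of 13 adaptors and negative regulators of the ERBB receptors, GAB2 had the largest ATRA change among the genes with over 3 counts in each group. This docking protein went from 31.4 and 39.6 CPM in shNC to 4.35 and 3.23 with ATRA (-3.18, SE 0.30, edgeR adjusted p = 9.6e-04), and from 36.1 and 33.8 in shKDM3B to 3.58 and 3.62 (-3.22, SE 0.20, adjusted p = 1.6e-06). ERRFI1, a feedback inhibitor of EGFR and ERBB2, was called lower in both lines (-1.01 and -1.11), and CBL, a ubiquitin ligase of activated receptors, was called higher (0.90 and 0.81). The calls in shNC held in 2 of 4 fits that left out a library for ERRFI1 and in 1 of 4 for CBL, whose change was 1.17 among the libraries with under 10% outside genes. CBLB, a relative of CBL, was the one gene of this list called between the lines, higher in untreated shKDM3B (0.65, SE 0.27, edgeR adjusted p = 0.454), a call kept in 1 of 4 fits without a library. PTPN11, the phosphatase SHP2, was the most abundant at 283 to 457 CPM and was not called. LRIG1, a negative regulator, had at most 1 count in the 5 libraries with under 10% outside genes and 7 to 31 counts in the other 3, and SLC25A26 on the opposite strand covers 37.9% of its exonic bases.

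Of 12 genes of other leukocyte proteins that ADAM10 or ADAM17 sheds, 8 were tested, and with ATRA 5 were called higher in shNC and 4 in shKDM3B while none was called lower. Of all genes, 15% were called higher and 10.8% lower in shNC, and 24% and 18.3% in shKDM3B. MERTK, a receptor of the TAM family, rose by 4.22 and 4.35, TNFRSF1B, a TNF receptor, by 3.16 and 3.21, and ICAM1, an adhesion receptor, by 2.81 and 1.78 in shNC and shKDM3B. The edgeR adjusted p-values of these 6 changes lay between 4.6e-06 and 0.00350.

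IL6R, the interleukin 6 receptor, differed between the lines under ATRA. It was at 74.4 and 80.7 CPM in shNC, 76.9 and 70.3 in shKDM3B, 205 and 136 in ATRA-treated shNC, and 75.3 and 72.8 in ATRA-treated shKDM3B. ATRA raised it by 1.17 in shNC (SE 0.25, edgeR adjusted p = 0.0232), and the change in shKDM3B was 0.06 (SE 0.13). It was called lower in shKDM3B under ATRA (-1.20, SE 0.25, edgeR adjusted p = 0.502), as was TNFRSF1B (-0.90, SE 0.29, adjusted p = 0.508). CSF1R was called lower in untreated shKDM3B (-0.78, SE 0.33, edgeR adjusted p = 0.467). These 2 calls under ATRA and that of CSF1R were each kept in 2 of 4 fits that left out a library. TNFRSF1A, the most abundant of the list on average, was at 118 to 209 CPM and was not called.

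**Figure D5:**
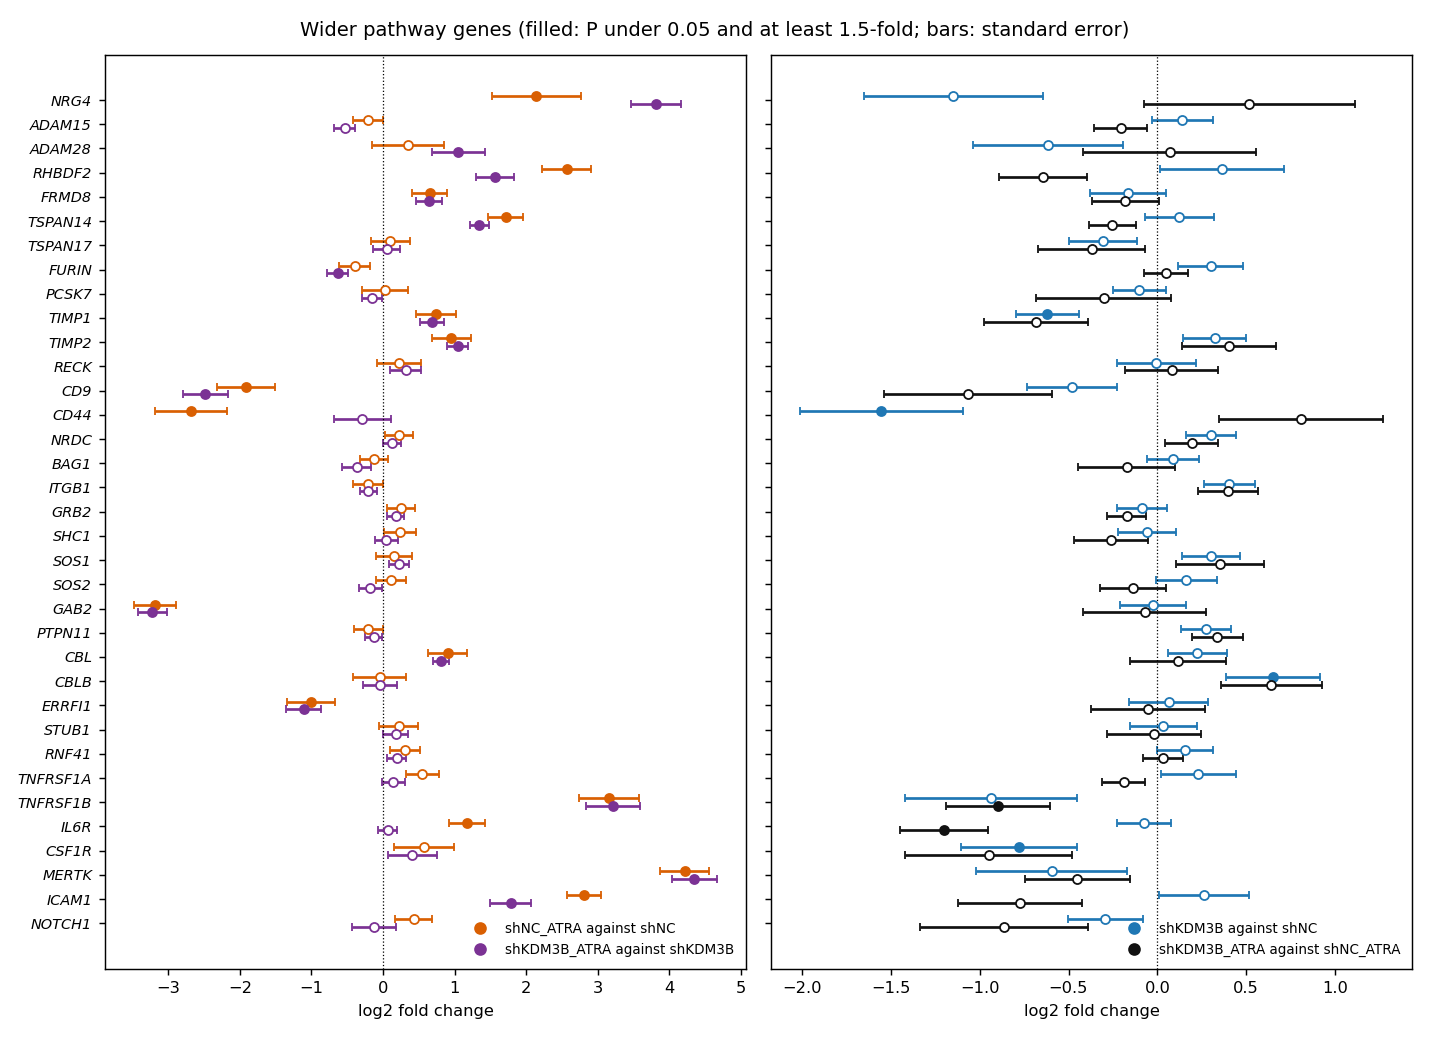
Fitted log2 fold changes (horizontal axes) of the 35 wider-list genes tested in every comparison and above 3 counts in each group; the left panel gives the ATRA changes in shNC (orange) and shKDM3B (purple), the right panel the knockdown differences without ATRA (blue) and with ATRA (black), and bars are standard errors. Filled points passed an unadjusted p under 0.05 and 1.5-fold; GAB2, CD9 and ERRFI1 lie left and RHBDF2, TSPAN14, TNFRSF1B and MERTK right of 0 in both lines with ATRA.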

How the data were processed

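RNA of 8 NB4 libraries (4 groups, 2 libraries each) was sequenced as 150-base read pairs. The authors used Trim Galore for trimming, HISAT2 for alignment to hg38 and HTSeq for counting read pairs per gene, and the deposited files hold these raw counts. Picard, SAMtools and DESeq2 are also named in the submitters' processing notes. Versions and the strand setting are not given in the sources used here. The 5 HTSeq summary lines stayed out of library sizes and tests. Names listed numbered 56470 in untreated and 56609 in treated files, 37526 in both, so whether both sets were counted alike is not known, and the ATRA comparisons use the shared names.

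Each comparison was fitted on its whole table with edgeR 4.0.16 in R 4.3.3 (filterByExpr, TMM, quasi-likelihood F test), the interaction on all 8 libraries, with Benjamini-Hochberg adjustment over all genes of the fit. A gene was called at an unadjusted p under 0.05 and a fold change of at least 1.5. Levels are TMM-scaled CPM over the shared names, per kilobase by GENCODE release 44 exons where genes are compared. Libraries held 9708739 to 33017787 assigned read pairs, and floors cover counting error only. Alternatives were DESeq2 1.42.0, other scalings, filters, pooled fits, a replicate block and leaving out each library.

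The members and lists were chosen with earlier results of these data known. Named genes are the members, KDM3B, up to 4 called, non-overlapping genes of each wider list per comparison with the largest change, the most abundant of each list, and the 5 genes most correlated with HBEGF (mean of at least 10 CPM). FRMD8, FURIN, EGFR, TIMP3, TIMP4 and the ligands without reads were named after their values were seen. Promoters came from RefSeq, which held 8 of the 10 members in the table used. Some genes of the lists are not reported here by name.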

Additional observations from a re-analysis of the deposited data

Results flagged for a closer look

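Of the wider-list genes, 3 were called for a difference between the lines in the ATRA response, IL6R, CD44 and ZBTB16, and none of them passed adjustment over the 13528 genes of that fit. For IL6R the response in shKDM3B minus that in shNC was -1.13 on the log2 scale (SE 0.29, edgeR adjusted p = 1.00). The call, at an unadjusted p under 0.05 and 1.5-fold, was made in all 8 fits that left out a library, with a range of -1.40 to -0.80, the smaller value without replicate 1 of ATRA-treated shNC. For CD44 the difference was 2.38 (SE 0.79, edgeR adjusted p = 1.00), and it was called in 5 of those 8 fits, between 1.75 and 3.24. ZBTB16 was called in 3 of those 8 fits, and as its ATRA-treated libraries held at most 3 counts, no size is given for its difference.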

How the results depend on the processing

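With the call resting on Benjamini-Hochberg adjusted p-values in place of unadjusted ones, called members fell from 2 to 0 in both knockdown comparisons and from 2 to 1 with ATRA in shNC, and called wider-list genes from 5 and 4 to 0 in the knockdown comparisons and from 3 to 0 for the difference in the ATRA response. Over all genes the calls fell from 971 to 3 and from 969 to 0 in the knockdown comparisons without and with ATRA, from 3213 to 1604 with ATRA in shNC and from 540 to 0 for the difference. DESeq2 called 1 member and 3 wider-list genes in untreated shKDM3B. Fitting all 8 libraries together gave 8 wider-list genes in the knockdown comparison under ATRA, and no low-count filter gave 6 for the difference in response and 941 over all genes. The replicate numbers are only numbers. Deviations of same-numbered libraries correlated at 0.389, 0.0261, -0.0731 and 0.183 in the 4 pairwise comparisons. With a replicate block, 2 wider-list genes (525 of all genes) were called in the knockdown comparison under ATRA, ADAM9 in untreated shKDM3B turned from 0.03 to -0.0062, no member gained or lost a call, and ADAM10 in untreated shKDM3B had an edgeR adjusted p = 5.5e-04.

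Leaving out a library moved called members between 0 and 2 in untreated shKDM3B, 0 and 4 in the knockdown comparison under ATRA, 1 and 3 with ATRA in shNC and 0 and 1 for the difference. Called wider-list genes ran from 2 to 7, 1 to 17, 11 to 19 and 2 to 8 in the same order. The 17 and the upper 8 came without replicate 2 of ATRA-treated shNC. HBEGF, chosen on these values, ranged from 0.63 to 1.10 in untreated shKDM3B, 2.05 to 2.57 with ATRA in shKDM3B and -1.99 to -1.48 for the difference. Signs turned in values that were not called with all the libraries compared. For ADAM10 these were -0.18 to 0.082 with ATRA in shNC, -0.012 to 0.10 in shKDM3B and -0.037 to 0.18 for the difference. ADAM17 ran from -0.12 to 0.051 in untreated shKDM3B. ADAM8 ran from -0.011 to 0.42 in untreated shKDM3B, -0.38 to 0.20 in the knockdown comparison under ATRA, -0.078 to 0.46 with ATRA in shNC and -0.36 to 0.13 in shKDM3B. ADAM9 ran from -0.39 to 0.34, -0.75 to 0.30 and -1.01 to 0.0055 in the first 3 of these comparisons and from -0.79 to 0.26 for the difference. ERBB2 ran from -0.50 to 1.39 in the knockdown comparison under ATRA and from -0.24 to 1.66 for the difference. Where a lone library remained in a group, it was assumed to vary like the other group. Of 268 values of single members under the other alternatives, 260 kept direction and call, 7 lost the call and 1 changed sign. HBEGF has no call, and its values were counted as kept when they moved by less than the spread of replicates. With 1 library left out, 22 of 168 values changed sign, and 6 values of HBEGF moved by at least that spread. ERBB3 could be fitted only without the low-count filter. The causes were not tested.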
